A study of Saccharomyces cerevisiae with 6 samples.

Results

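The *FRE* genes of *Saccharomyces cerevisiae* encode metalloreductases, and 8 of them, *FRE1* to *FRE8*, were followed here among the 6256 genes on the array. They were taken by name from the annotation of the array, and each was represented by 1 probe spotted 7 times. Expression was compared between YΔG/XK/XI, the control strain, and YΔGP/XK/XI, in which *PHO13*, the gene of a phosphatase, was also disrupted with *KanMX*. Both strains derive from the MATa laboratory strain YPH499. Both lack *GRE3*, overexpress xylulokinase (*XKS1*) from the *TDH3* promoter, and carry multiple integrated copies of *xylA*, the *Orpinomyces* xylose isomerase gene. Both were grown aerobically in YPD and then placed in oxygen-limited YP medium with 50 g/L xylose. RNA was taken at 9 h, with 3 replicates of each strain. YΔGP/XK/XI was isolated on G418 plates. The number of isolates is not given, so an effect of the isolate and an effect of the *PHO13* disruption cannot be told apart.

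Fre proteins are membrane flavocytochromes that pass electrons from NADPH inside the cell to metal ions on the other side of the membrane. At the cell surface they convert Fe3+ to Fe2+ and Cu2+ to Cu+, the forms that the iron permease complex and the copper transporters take up. The family is known for its division by metal and by place. Fre1 and Fre2 are the main surface reductases, Fre3 and Fre4 act on iron bound to siderophores (small iron chelators), Fre6 acts at the vacuole, and *FRE7* is known as a copper-responsive gene. The activators Aft1 and Aft2 drive the iron genes of the family when iron is short, and Mac1 drives *FRE1* and *FRE7* when copper is short.

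The arrays were of similar quality. Between 94.3% and 97.0% of the probes were well above background, no spot was saturated (0 on each array), and Pearson's r across genes, which are not independent replicates, was 0.996 to 0.998 within a strain and 0.984 to 0.988 between strains. *PHO13* was well above background on 3 of 3 arrays of YΔG/XK/XI and 0 of 3 of YΔGP/XK/XI, at least an 82.4-fold difference, taken against the lowest signal that still counted as well above background. *GRE3* was below that level on all 6 arrays and *XKS1* above it on all 6. The 6 MATa genes checked were above it on every array. Of 4 MATα genes, *STE3* and *SAG1* were also above it on all 6 arrays, and the α-factor genes were above it on 1 array each. Replicates 1 and 2 of both strains shared slide 1, and replicate 3 of both was on slide 2.

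Levels are given as normalized log2 signal, which is the log2 intensity of a probe minus the 75th percentile of its array, so a negative level is below that percentile. Probes bind with different strength, so levels are compared between strains and not between genes. A level is relative to the other RNA on the array, and fewer transcripts per cell cannot be told apart from more of the other RNA. A difference was called at a limma p below 0.05 after adjustment over all 6256 genes. The replicates are described only as triplicates, and whether each came from its own fermentation is not stated. The p-values therefore measure the spread between these samples.

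*FRE7* and *FRE1* were higher in YΔGP/XK/XI, at 2.88-fold and 1.49-fold of their levels in YΔG/XK/XI. *FRE6* and *FRE4* were lower, at 1.28-fold and 1.19-fold below them. *FRE2*, *FRE3* and *FRE8* were not called, and *FRE5* was not detected on 5 of 6 arrays. Thus 2 of the 8 members were called higher and 2 lower, where 16.5% of all genes on the array were called higher and 13.1% lower (29.6% together). The groups of arrays did not overlap for 6 of the 8 members, against 46.6% of all genes. The median log2 fold change of the 7 members measured on every array was -0.26, against 0.01 over all genes. With so many genes called on the array, the number of members called was not in itself particular to the family.

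**Figure D1:**
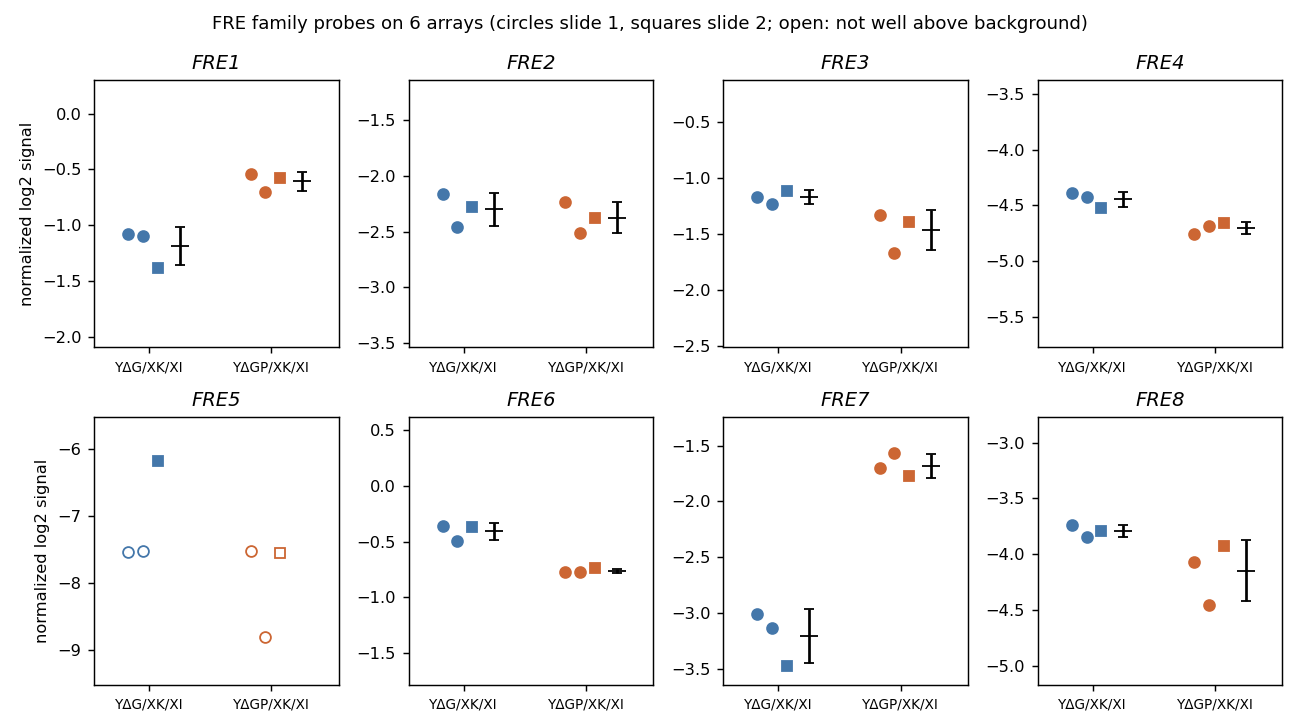
Normalized log2 signal (vertical axis) of each *FRE* gene in the 3 arrays of YΔG/XK/XI (blue) and the 3 of YΔGP/XK/XI (orange). Circles are slide 1, squares slide 2, open symbols not well above background, and bars the mean ± SD of 3 arrays (none for *FRE5*); the axis covers the same range in each panel except *FRE5*, where it is wider. The strains are widest apart for *FRE7*, at -3.21 against -1.68.

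*FRE1* (YLR214W) encodes the principal surface reductase for iron and copper. Its normalized log2 signal was -1.08, -1.10 and -1.38 in replicates 1 to 3 of YΔG/XK/XI and -0.54, -0.70 and -0.57 in those of YΔGP/XK/XI. Every YΔGP/XK/XI array was above every YΔG/XK/XI array. The means were -1.19 ± 0.17 and -0.61 ± 0.08 (SD, n = 3). The log2 fold change was 0.58 (standard error, SE, 0.10, 95% interval 0.35 to 0.81, adjusted p = 0.00364, limma), and the gene ranked 348 of 6256 by this change. The increase was 0.46 within slide 1 and 0.81 within slide 2. The third YΔG/XK/XI array was the lowest of its strain, and without it the log2 fold change was 0.48 (adjusted p = 0.00653, limma). Before scaling, the intensities were 3624, 3160 and 1783 in YΔG/XK/XI and 3825, 4361 and 2545 in YΔGP/XK/XI, which overlapped over all arrays but not among the arrays of one slide.

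*FRE2* (YKL220C), the other main surface ferric and cupric reductase, did not pass the test. Its normalized log2 signal was -2.17, -2.46 and -2.28 in YΔG/XK/XI and -2.24, -2.52 and -2.37 in YΔGP/XK/XI. The arrays of the strains overlapped, and the values within a strain spread over more than the difference between the means. The log2 fold change was -0.07 (95% interval -0.31 to 0.16, adjusted p = 0.619, limma). The interval therefore leaves room for a decrease of about the size measured for *FRE3* and excludes an increase as large as that of *FRE1*.

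*FRE7* (YOL152W), a putative ferric and cupric reductase, had the widest difference of the family. Its normalized log2 signal was -3.01, -3.13 and -3.48 in YΔG/XK/XI and -1.70, -1.56 and -1.77 in YΔGP/XK/XI. The lowest YΔGP/XK/XI array lay far above the highest YΔG/XK/XI array. The means were -3.21 ± 0.24 and -1.68 ± 0.11 (SD, n = 3), and the log2 fold change was 1.53 (SE 0.12, 95% interval 1.24 to 1.81, adjusted p = 9.34e-05, limma). It ranked 24 of 6256 by log2 fold change. The strains were apart by 1.44 on slide 1 and 1.70 on slide 2. The intensities were separate without any scaling as well, at 949, 769 and 423 in YΔG/XK/XI and 1714, 2406 and 1107 in YΔGP/XK/XI. As with *FRE1*, the third YΔG/XK/XI array was the lowest. On that array the 7 spots of *FRE7* had an SD of 0.28 on the log2 scale, against 0.06 and 0.07 on the others of the strain.

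*FRE3* (YOR381W) and *FRE4* (YNR060W) encode reductases that act on iron bound to siderophores. The normalized log2 signal of *FRE3* was -1.17, -1.23 and -1.11 in YΔG/XK/XI and -1.33, -1.67 and -1.40 in YΔGP/XK/XI. The arrays did not overlap, but the spread in YΔGP/XK/XI was wide. The log2 fold change missed the threshold, at -0.30 (SE 0.10, 95% interval -0.52 to -0.07, adjusted p = 0.0552, limma). It was -0.30 and -0.28 within slides 1 and 2. *FRE3* is therefore not counted as lower here, although it crossed the threshold under 8 of 17 other ways of processing or fitting the data.

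The *FRE4* probe was dim but well above background everywhere, with all 7 spots on every array. Its normalized log2 signal was -4.39, -4.42 and -4.52 in YΔG/XK/XI and -4.76, -4.69 and -4.66 in YΔGP/XK/XI. All 3 YΔGP/XK/XI arrays were lower. The log2 fold change was -0.26 (SE 0.07, 95% interval -0.42 to -0.09, adjusted p = 0.0300, limma), and was -0.32 on slide 1 and -0.14 on slide 2. The call was lost under 8 of the 17 alternatives, among them every fit that left out an array other than replicate 3 of YΔG/XK/XI. With the normexp background correction, which models the background of dim spots, the change was -0.14 (adjusted p = 0.204, limma).

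*FRE6* (YLL051C) encodes the reductase of the vacuolar membrane, which serves the release of stored iron and copper. Its normalized log2 signal was -0.36, -0.49 and -0.37 in YΔG/XK/XI and -0.77, -0.77 and -0.74 in YΔGP/XK/XI. The YΔGP/XK/XI arrays were close together and all below those of YΔG/XK/XI. The means were -0.41 ± 0.08 and -0.76 ± 0.02 (SD, n = 3), and the log2 fold change was -0.36 (SE 0.07, 95% interval -0.52 to -0.19, adjusted p = 0.00743, limma). The decrease was -0.35 and -0.37 on the slides. *FRE6* was the only member called lower under all 17 alternatives.

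*FRE8* (YLR047C), whose product is related to the iron reductases by sequence and whose role is less clear, was read on 7 spots of every array. Its normalized log2 signal was -3.74, -3.84 and -3.79 in YΔG/XK/XI and -4.07, -4.45 and -3.93 in YΔGP/XK/XI. The strains did not overlap, and YΔGP/XK/XI spread over a wider range. The log2 fold change was -0.36 with an SE of 0.13 and was not called (95% interval -0.65 to -0.06, adjusted p = 0.0681, limma). It was -0.47 on slide 1 and -0.13 on slide 2. With the slide as a block it was called (adjusted p = 0.0497, limma), and without replicate 2 of YΔGP/XK/XI it was -0.21 and not called.

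*FRE5* (YOR384W), a putative reductase, was at the limit of the array. In replicate 3 of YΔG/XK/XI all 7 spots were well above background, and the intensity was 64.4. In replicates 1 and 2 of that strain 2 spots each passed, with intensities of 41.6 and 37.1. In YΔGP/XK/XI 2, 0 and 1 spots passed, with intensities of 30.9, 16.7 and 20.5. A probe was counted as detected with at least 4 spots, so *FRE5* was detected on 1 of 3 YΔG/XK/XI arrays and 0 of 3 YΔGP/XK/XI arrays. No fold change is given for it, and these arrays do not show whether it differed.

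*AIM14* (YGL160W), which encodes an NADPH oxidase related to the Fre proteins and is not a member of the named family, had a log2 fold change of -0.21 and was not called (adjusted p = 0.0914, limma). An exact permutation test over the arrays, two-sided, gave p = 0.1 for *FRE1*, *FRE3*, *FRE4*, *FRE6*, *FRE7* and *FRE8*, the smallest value that 3 arrays against 3 allow, and 0.6 for *FRE2*. The calls therefore rest on limma, which borrows the variance of other genes. Whether the probe of one member also binds transcripts of another was not tested.

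The change of *FRE1* was next set against that of each paralog. On each array the log2 signal of the paralog was subtracted from that of *FRE1*, which removes the scaling of the array, and these differences were compared between the strains. *FRE5* was left out as not detected. The change of *FRE1* was more positive than that of *FRE2* by 0.65, of *FRE4* by 0.83, of *FRE3* by 0.87, of *FRE6* by 0.93 and of *FRE8* by 0.94 on the log2 scale. It was less positive than that of *FRE7*, with a difference of -0.95. Thus, relative to *FRE1*, transcripts of 5 paralogs fell and those of *FRE7* rose.

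Each of these 6 differences was called in limma, and the adjusted p ranged from 1.06e-05 for *FRE7* to 5.19e-04 for *FRE2*. All the differences share *FRE1*, and the variance estimated over them was too even for these p-values to be taken at face value. With the variance prior of the single-gene comparison, which was added after the data were seen, the adjusted p ranged from 7.04e-04 for *FRE7* to 0.00286 for *FRE2*. That prior was summed over *FRE1* and the paralog, as if the genes of a pair varied independently. The 95% intervals were then 0.35 to 0.96 for *FRE2*, 0.57 to 1.18 for *FRE3*, 0.58 to 1.09 for *FRE4*, 0.64 to 1.23 for *FRE6*, 0.62 to 1.26 for *FRE8* and -1.23 to -0.67 for *FRE7*, and 0 lay outside every one.

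Most genes on the array differed from *FRE1* in this way. Of the other 6255 genes, 82.7% were called (81.4% with the single-gene prior). The change of *FRE1* was called the more positive against 80.6% of the 6255 genes and called the more negative against 2.03%. The 5 paralogs over which *FRE1* rose were therefore like most of the array, and *FRE7* was among the 2.03% called in the other direction.

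**Figure D2:**
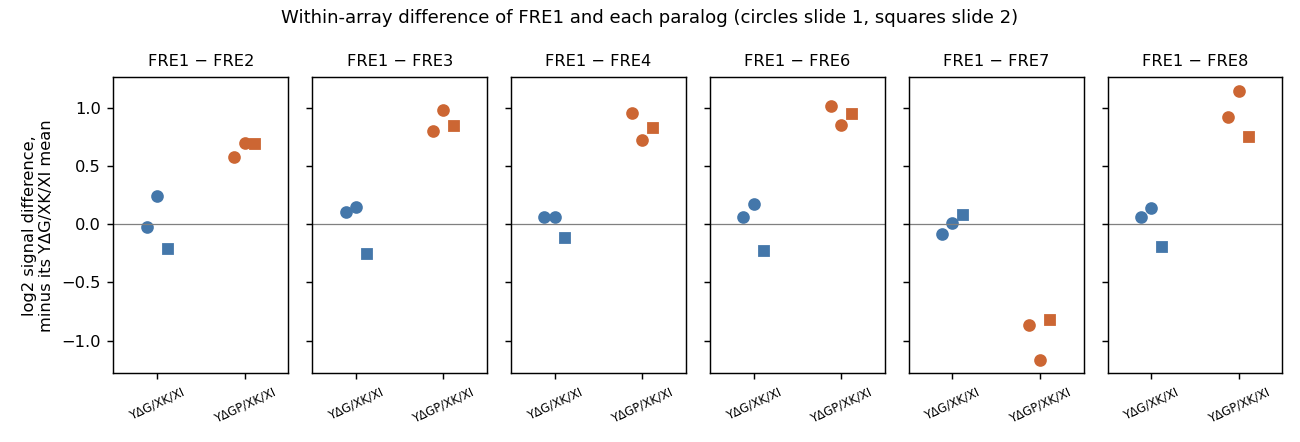
Log2 signal of *FRE1* minus that of a paralog on the same array (vertical axis, log2 units, with the YΔG/XK/XI mean of that difference set to 0), for 3 arrays of YΔG/XK/XI (blue) and 3 of YΔGP/XK/XI (orange). Circles are slide 1 and squares slide 2; the orange arrays lie above the blue ones in 5 panels and below them for *FRE7*, and the strains do not overlap in any panel.

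The within-array differences held on each slide. For *FRE2* they were 0.53 on slide 1 and 0.90 on slide 2, and for *FRE3* 0.77 and 1.09. For *FRE6* they were 0.81 and 1.18. *FRE4* (0.78 and 0.94), *FRE7* (-0.98 and -0.90) and *FRE8* (0.94 and 0.94) varied less between slides. In every case the sign was the same on both slides, which the separation of the arrays already fixes.

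Other genes of iron and copper use were then read from 5 lists, 42 genes in all. Across the lists 3 genes were called higher and 16 lower, where the shares over all genes were 16.5% and 13.1%, and 23 were not called, with a median log2 fold change of -0.24 against 0.01 over all genes. The strains did not overlap for 24 of the 42, against 46.6% of all genes. Without replicate 1 of YΔG/XK/XI 10 genes were called lower, and without replicate 1 of YΔGP/XK/XI 9 were.

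**Figure D3:**
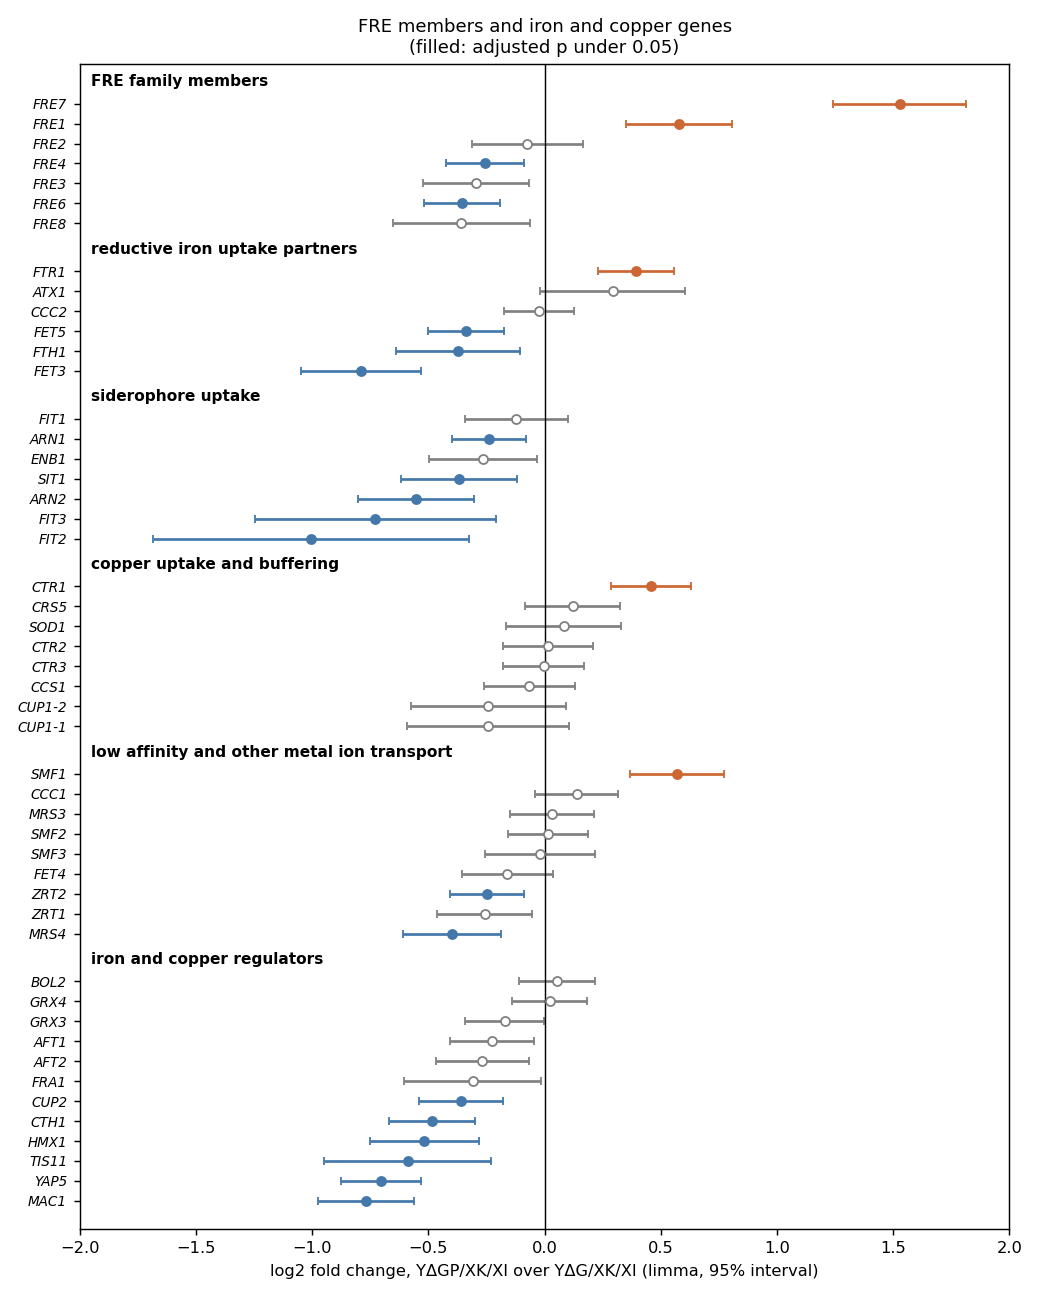
Log2 fold change of YΔGP/XK/XI over YΔG/XK/XI (horizontal axis) with its 95% interval from limma, for the 7 measured *FRE* genes and the genes of the 5 iron and copper lists. Filled points were called (orange higher, blue lower) and open points were not; *FRE7* lies farthest to the right at 1.53 and *FIT2* farthest to the left at -1.01.

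At the cell surface, iron reduced by Fre1 and Fre2 is taken up by the multicopper oxidase Fet3 and the permease Ftr1. These partners changed in opposite directions. *FET3* was at -2.22, -2.20 and -1.88 in YΔG/XK/XI and at -2.78, -3.03 and -2.85 in YΔGP/XK/XI on the normalized log2 scale, a log2 fold change of -0.79 (adjusted p = 0.00149, limma). *FTR1* was at -3.44, -3.42 and -3.31 in YΔG/XK/XI and at -2.99, -3.02 and -2.99 in YΔGP/XK/XI, a log2 fold change of 0.39 (adjusted p = 0.00454, limma). The strains did not overlap for either gene. *FET5* and *FTH1*, the oxidase and permease of the vacuole where Fre6 works, had log2 fold changes of -0.34 (adjusted p = 0.00921, limma) and -0.37 (adjusted p = 0.0439, limma), and the *FTH1* call was lost under 7 of 17 alternatives. *CCC2* and *ATX1*, which load copper into Fet3, were not called, at -0.02 and 0.29. In this list of 6 genes 1 was called higher and 3 lower (16.5% and 13.1% over all genes), with a median of -0.18.

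Siderophore uptake was represented by 7 genes, which encode transporters and cell wall mannoproteins and no Fre reductase. 5 were called lower and 0 higher (13.1% and 16.5% over all genes), and the median log2 fold change was -0.37. The log2 fold changes of the siderophore transporters *ARN2*, *SIT1* and *ARN1* were -0.55, -0.37 and -0.24 (adjusted p = 0.00697, 0.0345 and 0.0330, limma), and the calls of *SIT1* and *ARN1* were each lost under 6 of 17 alternatives. *ENB1*, a transporter of enterobactin, and *FIT1* were at -0.27 and -0.12 and not called. *FIT2* and *FIT3* encode cell wall mannoproteins that retain siderophore iron. *FIT2* was at -2.82, -2.49 and -1.44 in YΔG/XK/XI and at -3.26, -3.21 and -3.29 in YΔGP/XK/XI. The third YΔG/XK/XI array stood above the other two, and the log2 fold change of -1.01 (adjusted p = 0.0347, limma) was -0.60 without it (adjusted p = 0.00824, limma). *FIT3*, at -0.73 (adjusted p = 0.0420, limma), was likewise at -0.42 without that array (adjusted p = 0.0152, limma), where *ARN2* was at -0.45. In the R64 assembly *FRE3*, *FIT2*, *FIT3* and *FRE5* lie side by side on chromosome XV, apart from the small open reading frame YOR381W-A. *FRE5* was detected only on the array on which *FIT2* and *FIT3* were highest, while *FRE3* differed there from the other YΔG/XK/XI arrays by little, at -1.11.

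Copper uptake shares its reductases with iron. *CTR1*, the high-affinity copper transporter of the plasma membrane, was at 1.39, 1.42 and 1.25 in YΔG/XK/XI and at 1.79, 1.81 and 1.84 in YΔGP/XK/XI. The arrays did not overlap, and the log2 fold change was 0.46 (SE 0.07, adjusted p = 0.00283, limma). *CTR3*, a second high-affinity copper transporter, had a log2 fold change of -0.00 (adjusted p = 0.969, limma), and the vacuolar *CTR2* one of 0.01. *CUP1-1* and *CUP1-2*, near-identical metallothionein genes whose probes may read each other's transcripts, were both at -0.24 and not called. Of 8 copper genes, *CTR1* alone was called, where 29.6% of all genes were, and the median was 0.01.

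The 9 genes of low-affinity and other metal transport had a median log2 fold change of -0.02, with 1 called higher and 2 lower, a share near the 29.6% called over all genes. The manganese transporter *SMF1* had a log2 fold change of 0.57 (adjusted p = 0.00218, limma). The mitochondrial iron carrier *MRS4* and the zinc transporter *ZRT2* had log2 fold changes of -0.40 and -0.25 (adjusted p = 0.0134 and 0.0291, limma). *FET4*, the low-affinity iron transporter, was at -0.16 and not called.

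Of 12 genes listed with the regulators of iron and copper use, 6 were called lower and 0 higher (13.1% and 16.5% over all genes), with a median log2 fold change of -0.33. The 6 include *HMX1*, which encodes an enzyme. *MAC1*, which encodes the copper-sensing activator of *FRE1*, *FRE7*, *CTR1* and *CTR3*, was at -1.47, -1.52 and -1.38 in YΔG/XK/XI and at -2.15, -2.39 and -2.13 in YΔGP/XK/XI. The arrays were far apart, and the log2 fold change was -0.77 (SE 0.09, adjusted p = 5.99e-04, limma). Of the genes named here as driven by Mac1, *FRE1*, *FRE7* and *CTR1* were higher, and the *MAC1* transcript was lower. The arrays measure RNA and not the activity of the Mac1 protein, and what drove these genes was not tested. *CTR3* was not called, and whether Mac1 drives *CTR3* in these strains was not tested. *AFT1* and *AFT2*, which encode the iron-sensing activators, had log2 fold changes of -0.23 and -0.27 and were not called (adjusted p = 0.0629 and 0.0507, limma). *YAP5*, the activator used when iron is high, had a log2 fold change of -0.70 (adjusted p = 3.71e-04, limma). *CTH1* and *TIS11*, which encode proteins that destabilize messages for iron-using enzymes, were at -0.49 and -0.59 (adjusted p = 0.00310 and 0.0234, limma). The *TIS11* value was -0.39 without replicate 3 of YΔG/XK/XI, and its call was lost under 4 of 17 alternatives, normexp and each YΔGP/XK/XI array left out. The heme oxygenase gene *HMX1* and the copper-sensing activator gene *CUP2* were at -0.52 and -0.36 (adjusted p = 0.00689 and 0.0107, limma).

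The third YΔG/XK/XI array carried the highest *FIT2*, *FIT3*, *TIS11*, *FET3*, *ARN2*, *FRE5* and *MAC1* and the lowest *FRE1*, *FRE7* and *CTR1* of its strain. It was also the highest or the lowest of its strain for other genes named here, such as *FTR1*, *SIT1* and *SMF1*. Its part in the results was not tested beyond leaving it out, which left *FRE1*, *FRE4*, *FRE6* and *FRE7* called and ended the calls of *ARN1*, *SIT1* and *FTH1* (adjusted p = 0.0685, 0.0575 and 0.107, limma).

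**Figure D4:**
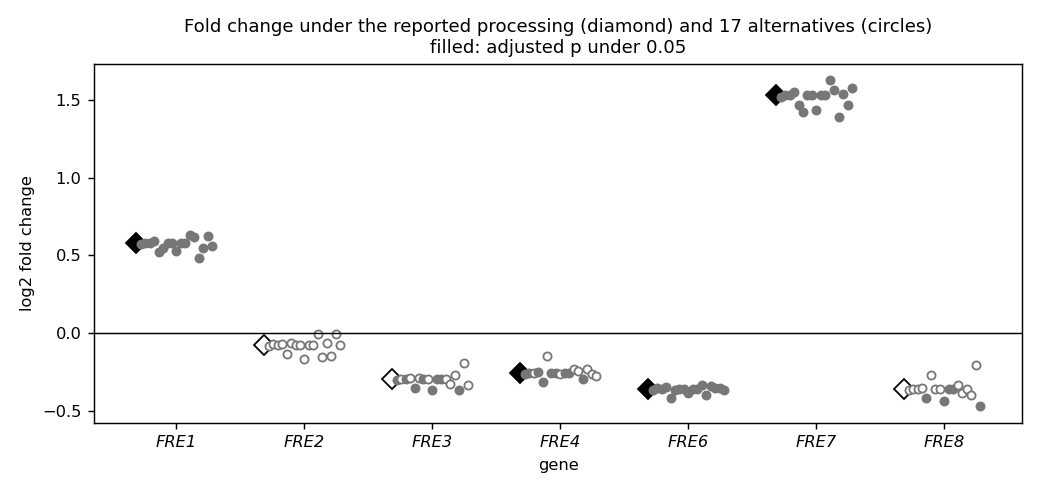
Log2 fold change (vertical axis) of the 7 measured *FRE* genes under the reported processing (diamonds) and 17 alternatives (circles); filled symbols passed an adjusted p of 0.05 in limma. *FRE7* stays between 1.39 and 1.63 and *FRE1* between 0.48 and 0.63, all filled, whereas the circles of *FRE3*, *FRE4* and *FRE8* are partly open.

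The genes most like *FRE1* over the 6 arrays were sought among 5887 genes well above background on every array, by the root mean square distance between log2 signals centred on each gene's own mean. The nearest were *THI80* at 0.0361, *RRP12* at 0.0398, *UTP8* at 0.0399, *MAK3* at 0.0428 and *TRM3* at 0.0439 log2 units, where the median distance was 0.323. *THI80* encodes thiamine pyrophosphokinase, *RRP12* and *UTP8* encode factors of ribosome and tRNA export, *MAK3* a subunit of an N-terminal acetyltransferase and *TRM3* a tRNA methyltransferase. Their log2 fold changes were between 0.52 and 0.62, a closeness to *FRE1* that the way they were chosen largely fixes. No *FRE* gene was near *FRE1* on this measure, which counts the size of a change as well as its shape. *FRE7*, at a distance of 0.489, ranked 5324, although its Pearson's r with *FRE1* was 0.962 over the 6 arrays, a description that includes the difference between the strains.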

How the data were processed

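RNA from the 3 replicates of each strain was labelled with Cy3 and hybridized to single-colour Agilent yeast arrays. The authors deposited the Feature Extraction (version 10.1.1.1) output of each array, in which a background-subtracted intensity, raw and background intensities and flags are given for each spot in scanner units, with no scaling between arrays. A log2 table that the authors deposited matched the intensities after 75th percentile scaling and centring of each probe on its median (r of at least 0.9999) and served only as an alternative. The methods state normalization per chip and do not name the test.

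Control spots and outlier spots (304 to 466 of 43792 gene spots per array) were dropped, log2 intensities were averaged over the 7 spots of a probe and set against the 75th percentile of their array. A probe counted as well above background with at least 4 flagged spots. The precision is limited by the 3 arrays per strain. Differences were fitted by lmFit and eBayes of limma (version 3.58.1, under R 4.3.3), with Benjamini-Hochberg adjustment over 6256 genes and a threshold of 0.05. The same comparison was run on simulated data with independent noise and planted changes larger than those of *FRE1*, *FRE4* and *FRE6*. That simulation therefore does not bear on changes of their size. Exact permutation tests were run for single genes. Replicate numbers are shared by the strains in the labels, and the deviations of same-numbered arrays correlated positively but unevenly (r of 0.07, 0.30 and 0.41). The reported fit did not pair the arrays, and replicate and slide blocks were run as alternatives. More genes were called with them, 2362 with the replicate block and 2301 with the slide block, against 1852.

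The *FRE* members, the iron and copper lists, the tests and the alternatives were chosen with earlier results of these data known. The genes named are the members, the called genes of the lists and the 5 genes nearest to *FRE1*; the other list genes were named after their values were seen. The lists were written from general knowledge, and 5756 of 6256 systematic names were found in R64, which gave names and neighbours only. Alternatives covered background correction, scaling, dim probes, spots, outliers, the variance model, replicate and slide blocks, the deposited table and leaving out each array. Probe and promoter sequences were not used here.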

Additional observations from a re-analysis of the deposited data

How the results depend on the processing

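*FRE1* and *FRE7* were called higher and *FRE6* lower under all 17 alternatives, *FRE1* at log2 fold changes of 0.48 to 0.63 and *FRE7* at 1.39 to 1.63, and none of the 7 measured *FRE* genes or the called list genes changed direction. The 6 differences between *FRE1* and its paralogs were called under these and with the single-gene prior. Median scaling, a 75th percentile over other probes and the deposited table are no test of them, since the scaling of an array cancels. Keeping outlier spots left their values as they were, since no spot of a *FRE* probe was an outlier. The number of *FRE* genes called lower, 2 as reported, was 4 with median scaling (*FRE3*, *FRE4*, *FRE6* and *FRE8*), 1 with normexp (*FRE6*), 5 with the replicate block (*FRE5*, which was not detected on 5 of 6 arrays, in addition), 4 with the slide block, and 1 to 2 when each array was left out; it was 1 without replicate 1 or 2 of YΔG/XK/XI or replicate 2 of YΔGP/XK/XI. *FRE3* ranged from -0.36 to -0.19 (adjusted p 0.0251 to 0.135, limma), *FRE4* from -0.31 to -0.14 (0.0120 to 0.204) and *FRE8* from -0.47 to -0.21 (0.0166 to 0.173). *FRE8* passed the threshold under 5 of the 17. *FIT2*, *FIT3*, *TIS11* and *ZRT2* each lost their call under 4 alternatives and *MRS4* under 1. The iron and copper genes called lower, 16 as reported, numbered 9 to 14 when each array was left out. Over the whole array 1852 genes were called, 1033 higher and 819 lower, 2636 had an unadjusted p under 0.05, and leaving out each array gave 1178 to 1661 genes, 487 to 698 of them lower, with the fewest without replicate 1 of YΔG/XK/XI; these fits have fewer samples. Median scaling gave 846 higher and 1126 lower (42.9% higher, against 55.8%), and quantile normalization 910 and 991. The replicate block gave 2362 genes. Beside these, the cause of a changed count was not tested. The median of all genes moved by under 0.1 under each scaling. A search of promoters for motifs was not run. Signals near background limit *FRE5* and, less, *FRE4*.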
